A study of Mus musculus with 12 samples.

Results

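The genes described here are 36 components of T cell receptor signalling, from the CD3 chains and the kinases beside the receptor to the NFAT transcription factors and the proteins that restrain the signal. They form a list chosen by function. The choice was made with earlier results of these data known, so shares of the list set against all genes are no independent test. Each gene was read by the probe set (the group of probes for 1 transcript) with the highest mean log2 intensity over all 12 arrays, among the probe sets that the platform annotation ties to that gene alone. A probe set was found for 34 of the 36 genes, out of 18193 genes represented in this way, and Lck and Itpr1 are not analysed here.

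Splenic T cells came from mice of 2 backgrounds, both aged 6 weeks, and no treatment is named in the labels. NOD mice develop autoimmune diabetes, and B6.H2g7 mice (B6g7) are congenic B6 animals with the H2g7 MHC class II haplotype of NOD, so that all 4 groups share it. From each background, conventional T cells (Tconv, CD4+CD25-) and regulatory T cells (Treg, CD4+CD25hi) were enriched with magnetic beads and sorted in a pair of passes, gated without CD8a, CD11b, CD69 and B220. Each group held 3 arrays, and each array took RNA pooled from 3 mice, so that a p-value measures the spread between pools and not between single animals. The question of the series was how the expression of Treg relative to Tconv compares between the strains.

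The T cell receptor has no kinase of its own. When it meets its ligand, Lck phosphorylates the CD3 chains, ZAP-70 docks on them and phosphorylates the scaffolds LAT and SLP-76, and from there phospholipase C-gamma sends the signal to calcium, calcineurin and NFAT, to Ras, and through protein kinase C-theta, BCL10 and MALT1 to NF-kB. Ubiquitin ligases, diacylglycerol kinases and the kinase Csk hold the signal back, and Treg cells need the receptor to form and to suppress, while Foxp3, the factor that defines them, binds DNA together with NFAT.

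The arrays followed their labels: Foxp3 lay between 5.57 and 6.24 on the log2 scale in the 6 Tconv arrays and between 10.67 and 11.26 in the 6 Treg arrays. After sorting, between 89% and 96% of Treg cells were Foxp3+, per the labels. Median intensities of the 12 arrays lay between 83.9 and 88.6, and precision is limited by having 3 arrays in a group. The arrays numbered replicate 1 stood apart from the other two of their groups. Actin control probes at the 3' end read higher than those at the 5' end by 2.66 to 4.70 (log2), a gap that tells how complete the RNA was. Replicate 1 had the smallest gap in 3 of the groups, with 2.66 in the Treg of B6g7, and 2.97 in Tconv and 3.29 in Treg of NOD.

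The T cell receptor genes showed the same arrays apart. On the replicate 1 array, 10 of the 34 genes had the highest value of their group in all 4 groups: Cd3g, Fyn, Lat, Lcp2, Nck1, Plcg1, Nfatc1, Nfatc3, Cblb and Sla. Another 3 genes, Cd3e, Sla2 and Dgkz, had the lowest value there in all 4 groups. These are 29.4% and 8.82% of the list, against 6.08% and 6.89% of all genes. Sla showed the pattern plainly, with 12.69 on replicate 1 of B6g7 Treg against 11.69 and 11.83 on the others. The counts of called genes, and the calls that changed once these arrays were left out, are also given without them. Of the genes named in this paragraph, only Dgkz is given a change without them. The part of RNA quality in the results was not tested.

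**Figure D1:**
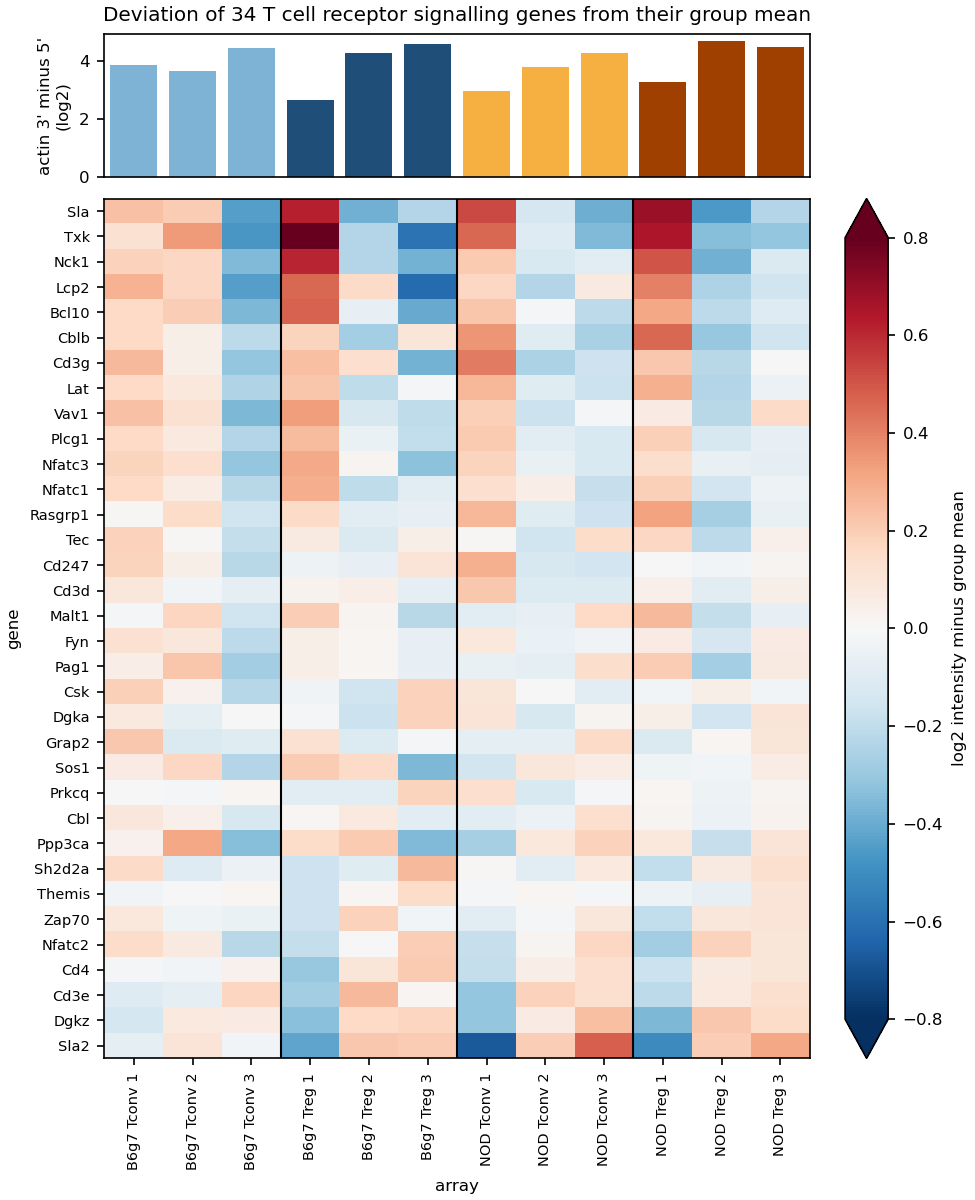
Deviation of each of the 34 T cell receptor signalling genes from its group mean (log2 intensity, colour) on each of the 12 arrays, below the actin 3' minus 5' difference of the array (bars, log2). The columns numbered 1 are the reddest for genes at the top such as Sla and Nck1 and the bluest for Sla2 and Dgkz at the bottom.

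Averaged over both strains, 6 of the 34 genes were lower in Treg than in Tconv and 1 was higher, at an adjusted p under 0.05 in limma (called, from here on). The 6 were Themis, Tec, Pag1, Malt1, Grap2 and Cd4, and the 1 was Ppp3ca. They make up 17.6% and 2.94% of the list, while of all genes 3.03% were called lower and 4.46% higher. Among the 6953 genes at or above the level of the dimmest of the 34, the shares were 5.72% lower and 7.1% higher. The median change of the 34 genes was -0.21 on the log2 scale, against -0.01 over all genes, and 25 of them (73.5%) lay below 0, against 54.3% of all genes. The rest, 27 genes, were not called, although 17 of the 34 had an unadjusted p under 0.05 (50% of the list, against 16.5% of all genes). In bulk RNA a lower level in every cell and fewer cells that express the gene cannot be told apart.

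By strain, 2 of the 34 genes were called lower in B6g7 Treg and none higher (5.88% of the list, against 1.7% of all genes lower and 2.84% higher). In NOD Treg, 5 were called lower and none higher (14.7%, against 1.52% of all genes lower and 2.86% higher). Themis and Grap2 were called in both strains, and Tec, Malt1 and Pag1 in NOD. Under some other settings of the fit, given with each gene below, Tec, Malt1 and Pag1 were called in B6g7 as well. The median change was -0.15 in B6g7 and -0.22 in NOD. The averaged comparison is built from the same arrays as those within strains, so the 3 are not independent. The labels state no pairing, and in NOD the replicate numbers were taken as pairing the arrays from the data. With the number as a block 11 genes were called lower and 2 higher there. Over all genes the block also raised the NOD calls, from 277 lower and 520 higher to 522 and 717.

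**Figure D2:**
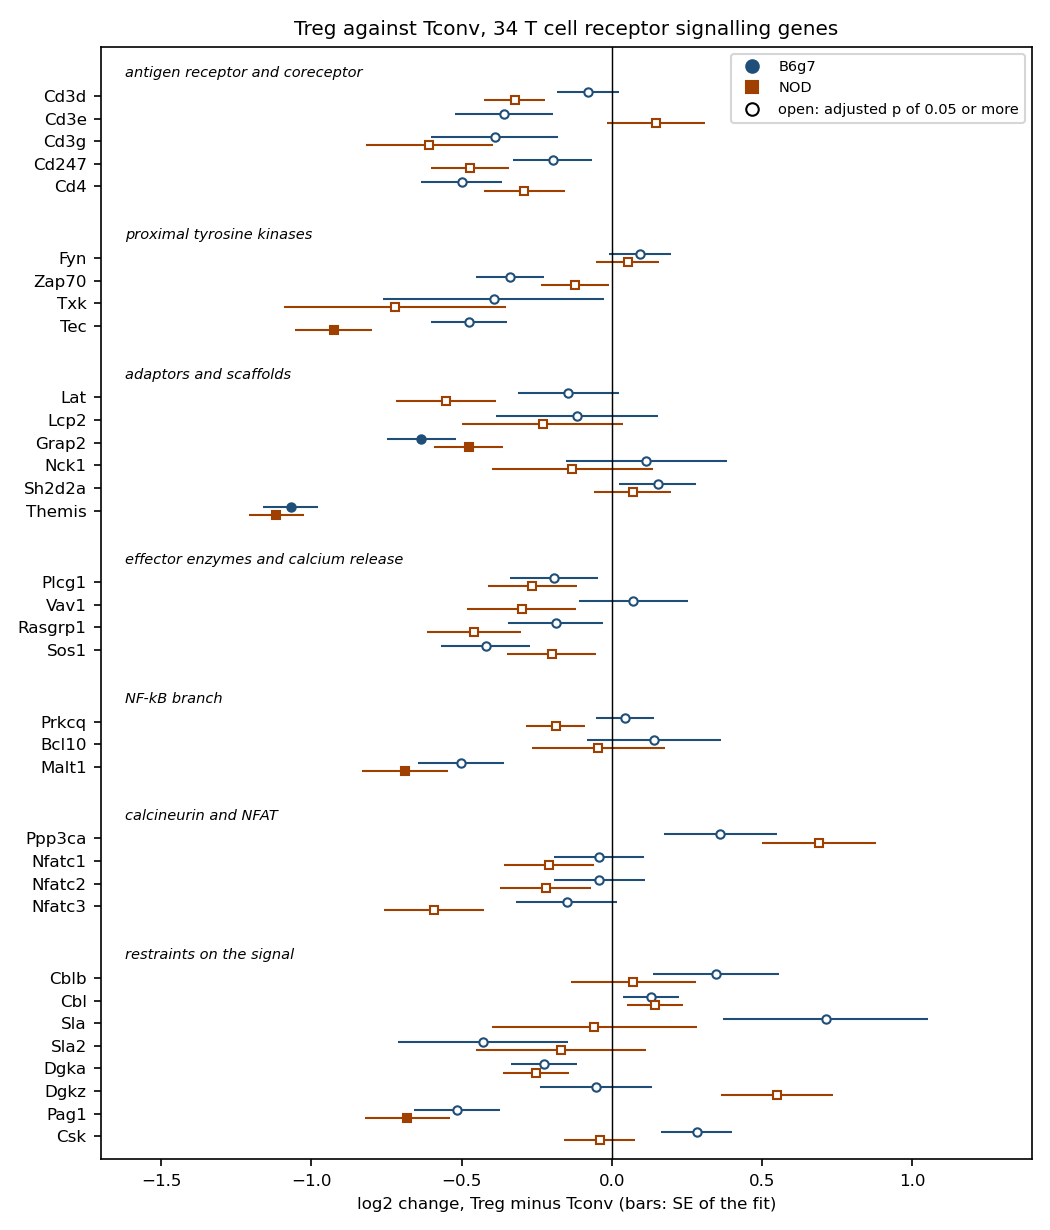
Log2 change of Treg minus Tconv for the 34 genes, grouped by role, in B6g7 (circles) and NOD (squares), with the standard error of the fit as bars and filled symbols for an adjusted p under 0.05. Themis lies farthest to the left in both strains, near -1.07 and -1.12, and most open symbols lie between -0.5 and 0.

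Among the receptor chains and the coreceptor, Cd4 was called lower in Treg and the 4 CD3 and zeta chains were not called. Cd3d, Cd3e, Cd3g and Cd247 encode the CD3 delta, epsilon, gamma and zeta chains, which carry the signal into the cell. All 5 changes of the averaged comparison lay below 0, with a median of -0.33.

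Cd3d (probe set 1422828_at) stood at 12.06, 11.94 and 11.90 on the B6g7 Tconv arrays 1 to 3 and at 11.92, 11.94 and 11.81 in B6g7 Treg. In NOD it was at 12.36, 12.03 and 12.03 in Tconv and at 11.86, 11.73 and 11.86 in Treg. The groups overlapped in B6g7 and were apart in NOD, and the averaged change was -0.20 ± 0.07 (SE, adjusted p = 0.172).

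Cd3e (1422105_at) was at 12.37, 12.41 and 12.65 in B6g7 Tconv and at 11.84, 12.38 and 12.13 in B6g7 Treg. The NOD arrays gave 11.92, 12.41 and 12.36 in Tconv and 12.17, 12.46 and 12.51 in Treg. The groups overlapped in both strains, and the changes had opposite signs, -0.36 in B6g7 and 0.15 in NOD. That difference of 0.51 ± 0.23 had an unadjusted p of 0.0479 and an adjusted p of 0.962 in limma.

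Cd3g (1419178_at) was at 11.25, 11.03 and 10.68 in B6g7 Tconv and at 10.84, 10.74 and 10.22 in B6g7 Treg. In NOD the values were 11.87, 11.20 and 11.29 in Tconv and 11.07, 10.63 and 10.85 in Treg. The B6g7 groups overlapped, and in NOD the 3 Treg arrays all lay under the 3 Tconv arrays. The averaged change was -0.50 ± 0.15 (adjusted p = 0.0842), and the NOD change of -0.61 had an adjusted p of 0.231, or 0.016 with the replicate block.

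Cd247 (1426396_at) was at 10.80, 10.67 and 10.40 in B6g7 Tconv and at 10.39, 10.36 and 10.53 in B6g7 Treg. Its NOD values were 11.10, 10.69 and 10.66 in Tconv and 10.34, 10.32 and 10.36 in Treg. The NOD groups were apart, with 3 nearly equal Treg arrays. The change was -0.47 in NOD (adjusted p = 0.085, and 0.0371 with the block) and -0.33 ± 0.09 averaged (adjusted p = 0.0548).

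Cd4, the coreceptor that brings Lck to the receptor and the marker on which both cell types were sorted, fell in the averaged comparison. Its probe set 1419696_at was at 10.10, 10.09 and 10.15 in B6g7 Tconv and at 9.31, 9.71 and 9.82 in B6g7 Treg. On NOD arrays the levels were 9.90, 10.14 and 10.22 in Tconv and 9.63, 9.87 and 9.89 in Treg. All 6 Treg arrays lay under all 6 Tconv arrays, by little in NOD. The averaged change was -0.40 ± 0.10, a fold of 1.32, with an adjusted p of 0.0262, and neither strain alone was called. The call did not hold in 6 of the 12 fits that left out 1 array, where the adjusted p reached 0.0763, nor after quantile normalization (adjusted p = 0.115), nor by the median of its probe sets (adjusted p = 0.538). The other probe set of Cd4 changed by 0.10 and was not called.

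Of the 4 tyrosine kinases measured beside the receptor, Tec was called lower in Treg, and Zap70, Fyn and Txk were not called. Tec and Txk belong to the Tec family, which helps to activate phospholipase C-gamma, Fyn is a Src family kinase, and Zap70 encodes the kinase that docks on the phosphorylated CD3 chains.

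Tec (1460204_at, the only probe set of the gene) was at 9.70, 9.53 and 9.32 in B6g7 Tconv and at 9.11, 8.93 and 9.09 in B6g7 Treg. In NOD it was at 9.56, 9.39 and 9.69 in Tconv and at 8.78, 8.41 and 8.66 in Treg. The 3 NOD Treg arrays were the lowest of the 12, and the 6 Treg arrays lay under the 6 Tconv arrays. The averaged change was -0.70 ± 0.09, 1.63-fold, with an adjusted p of 0.000263. In NOD the change was -0.93 ± 0.13 (adjusted p = 0.000901), and in B6g7 it was -0.48 ± 0.13 (adjusted p = 0.0717). The B6g7 change was called with the replicate block, array weights, the actin covariate, quantile normalization and the median of each gene's probe sets. The strains differed in this change by -0.45 ± 0.18, with an adjusted p of 0.962, so a difference between them was not shown. The NOD call and the averaged call held in every alternative fit and in all 12 fits without 1 array, where the highest adjusted p was 0.00659 in NOD and 0.00124 averaged.

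Zap70 (1440178_x_at) was at 10.21, 10.09 and 10.07 in B6g7 Tconv and at 9.62, 9.97 and 9.77 in B6g7 Treg. The NOD arrays gave 10.11, 10.19 and 10.28 in Tconv and 9.87, 10.16 and 10.17 in Treg. The B6g7 groups were apart, and the NOD groups overlapped. The change was -0.34 ± 0.11 in B6g7 (adjusted p = 0.183) and -0.12 ± 0.11 in NOD (adjusted p = 0.859).

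Fyn changed by 0.09 in B6g7 and 0.05 in NOD, with 95% intervals from -0.13 to 0.32 and from -0.17 to 0.28. Txk had the widest spread of the kinases, from 6.88 to 8.30 within B6g7 Treg. Its averaged change of -0.56 ± 0.26 had an adjusted p of 0.365. With the replicate block the NOD change of Txk was called at -0.72 (adjusted p = 0.0492) and the averaged change at -0.56 (adjusted p = 0.0204). The averaged change was also called with array weights, with the actin covariate, and at -0.78 (adjusted p = 0.0157) once all 4 replicate 1 arrays were left out, a setting added after the data were seen.

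Among the adaptors and scaffolds, Themis and Grap2 were called lower in Treg in both strains, and Lat, Lcp2, Nck1 and Sh2d2a were called in neither. Themis is a T cell adaptor, best known for its need in thymocyte selection, that acts with the phosphatase SHP-1. Grap2 encodes GADS, which ties SLP-76 to LAT.

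Themis (1436423_at) was at 10.49, 10.51 and 10.53 in B6g7 Tconv and at 9.28, 9.46 and 9.59 in B6g7 Treg. Its NOD values were 10.47, 10.49 and 10.46 in Tconv and 9.32, 9.29 and 9.46 in Treg. The 6 Tconv arrays lay within a range narrower than the spread of either Treg group, and every Treg array lay far under them. Themis fell by 1.07 on the log2 scale in B6g7 (SE 0.09, adjusted p = 1.48e-05) and by 1.12 in NOD (SE 0.09, adjusted p = 1.17e-05). That is 2.1-fold and 2.17-fold, and the averaged change was -1.09 ± 0.06 (adjusted p = 2.46e-07). The strain difference in this change was -0.05, with a 95% interval from -0.33 to 0.23.

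The 3 other probe sets of Themis were also called lower in the averaged comparison. Probe set 1443192_at was at 9.08, 9.21 and 8.62 in B6g7 Tconv against 7.94, 7.34 and 7.33 in Treg, and changed by -1.29 averaged. Probe set 1439719_at changed by -1.10, and 1442022_at by -0.43. All 4 probe sets of Themis moved the same way, and the call of the brightest held in every fit without 1 array and every other setting.

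Grap2 (1420685_at) was at 8.22, 7.89 and 7.91 in B6g7 Tconv and at 7.50, 7.26 and 7.36 in B6g7 Treg. On NOD arrays the levels were 7.74, 7.74 and 7.97 in Tconv and 7.22, 7.36 and 7.44 in Treg. All 6 Treg arrays lay under all 6 Tconv arrays. Grap2 fell by 0.63 (SE 0.11, 1.55-fold, adjusted p = 0.00676) in B6g7 and by 0.48 (SE 0.11, 1.39-fold, adjusted p = 0.0427) in NOD, and the averaged change was -0.55 ± 0.08 (adjusted p = 0.000765). The NOD call did not hold in 9 of the 12 fits without 1 array, where the adjusted p reached 0.191, nor with the 4 replicate 1 arrays left out (adjusted p = 0.108). It was also lost with only the NOD arrays in the fit (adjusted p = 0.0512) and by the median of the probe sets (adjusted p = 0.243). The other probe set of Grap2, 1460280_at, changed by -0.09 and was not called.

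Promoters are shown for 3 of the 6 genes called lower in Treg, the only ones of the 7 called genes with a RefSeq promoter window. Cd4, Malt1, Pag1 and Ppp3ca had none. The motifs were looked at because Foxp3 is a forkhead factor and NFAT lies at the end of this pathway. RefSeq windows from 250 bases before to 50 bases after the gene start (build GRCm38.p6) are printed for Themis, Tec and Grap2, on the gene's strand from 5′ to 3′. The capitals mark matches, on either strand, to the forkhead core GTAAACA, the NFAT core GGAAA and the TCF/LEF core CTTTGA. The Themis window lies at chr10:28668110-28668409 on the plus strand (the first of 2 windows of the gene), that of Tec at chr5:72868399-72868698 on the minus strand, and that of Grap2 at chr15:80623233-80623532 on the plus strand.
Themis: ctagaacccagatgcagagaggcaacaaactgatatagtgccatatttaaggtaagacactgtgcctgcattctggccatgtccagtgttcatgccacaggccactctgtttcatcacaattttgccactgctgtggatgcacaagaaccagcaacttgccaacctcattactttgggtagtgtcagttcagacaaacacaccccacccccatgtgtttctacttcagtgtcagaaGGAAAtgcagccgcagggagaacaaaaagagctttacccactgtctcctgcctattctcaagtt
Tec: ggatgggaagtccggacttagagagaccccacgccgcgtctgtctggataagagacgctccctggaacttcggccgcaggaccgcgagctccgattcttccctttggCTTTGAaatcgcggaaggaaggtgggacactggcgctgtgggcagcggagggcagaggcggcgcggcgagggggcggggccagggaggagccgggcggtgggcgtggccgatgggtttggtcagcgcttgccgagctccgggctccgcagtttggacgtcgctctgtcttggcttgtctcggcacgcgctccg
Grap2: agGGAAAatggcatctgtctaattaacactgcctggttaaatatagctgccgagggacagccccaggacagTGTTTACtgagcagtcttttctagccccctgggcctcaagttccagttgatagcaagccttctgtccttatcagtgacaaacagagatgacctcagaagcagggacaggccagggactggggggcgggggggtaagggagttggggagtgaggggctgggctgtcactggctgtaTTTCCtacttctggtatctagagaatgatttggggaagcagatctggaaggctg

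The Grap2 window held 1 forkhead core and 2 NFAT cores, the Themis window 1 NFAT core, and the Tec window 1 TCF/LEF core. Over all 32851 windows, 3.65% held the forkhead core, 61.3% the NFAT core and 16% the TCF/LEF core, so that the NFAT core is common in any window of this length. Of the 27 genes of the list with a window, 3 (Grap2, Nfatc2 and Nfatc3) held the forkhead core, 21 the NFAT core and 9 the TCF/LEF core. A gene was counted if any of its windows matched, while the shares over all windows are per window, so they are unlike measures. The windows differed in base composition, with 47.3% G and C for Themis, 53% for Grap2 and 67.7% for Tec, against a median of 52.7%. A match describes letters and is not a bound site.

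Lat, Lcp2, Nck1 and Sh2d2a encode the scaffold LAT, its partner SLP-76, the cytoskeletal adaptor Nck and the adaptor TSAd. Lat was at 11.69, 11.33 and 11.25 in NOD Tconv and at 11.16, 10.63 and 10.83 in NOD Treg, 2 groups that did not overlap. Its NOD change of -0.55 ± 0.17 had an adjusted p of 0.134, or 0.00804 with the replicate block, and its B6g7 change was -0.14. Lcp2 changed by -0.17 averaged, Nck1 by -0.01 and Sh2d2a by 0.11, with adjusted p-values of 0.828, 0.996 and 0.723. For Nck1 the interval was wide, from -0.42 to 0.41, so a change of that size in either direction is within the error.

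None of the 4 effector enzymes and exchange factors was called between Treg and Tconv. Plcg1 encodes phospholipase C-gamma 1, Vav1 an exchange factor that acts on the cytoskeleton, and Rasgrp1 and Sos1 exchange factors that switch on Ras. All 4 averaged changes lay below 0: -0.23 ± 0.10 for Plcg1, -0.11 ± 0.13 for Vav1, -0.32 ± 0.11 for Rasgrp1 and -0.31 ± 0.10 for Sos1. Their adjusted p-values were 0.351, 0.831, 0.146 and 0.137. Rasgrp1 was at 12.67, 12.08 and 12.28 in NOD Treg against 13.07, 12.70 and 12.64 in NOD Tconv, and with the replicate block its NOD change of -0.46 was called (adjusted p = 0.0416).

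On the NF-kB branch, Malt1 was called lower in Treg and Prkcq and Bcl10 were not called. Malt1 encodes the protease and scaffold that Bcl10 activates, and Prkcq encodes protein kinase C-theta, which starts this branch. Malt1 (1456126_at) was at 9.93, 10.11 and 9.78 in B6g7 Tconv and at 9.63, 9.46 and 9.22 in B6g7 Treg. In NOD it was at 10.26, 10.28 and 10.51 in Tconv and at 9.92, 9.47 and 9.60 in Treg. Treg and Tconv were apart within each strain but not across both strains, since NOD Treg replicate 1 lay above the lowest B6g7 Tconv array.

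Malt1 fell by 0.69 in NOD (SE 0.14, 1.61-fold, adjusted p = 0.0178), and the averaged change was -0.59 ± 0.10 (1.51-fold, adjusted p = 0.00248). In B6g7 the change was -0.50 ± 0.14 (adjusted p = 0.098), and it was called with array weights, the actin covariate and quantile normalization. The NOD call did not hold in 4 of the 12 fits without 1 array. The other probe sets of Malt1 changed by -0.55 and -0.45 and were not called, and the median of all its probe sets was not called either (adjusted p = 0.338). Prkcq changed by 0.04 in B6g7 and -0.19 in NOD, and Bcl10 by 0.14 and -0.04, none of them called.

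In the calcineurin and NFAT group, Ppp3ca was the only gene of the 34 called higher in Treg. It encodes the catalytic alpha subunit of calcineurin, the calcium-activated phosphatase that sends NFAT to the nucleus. Ppp3ca (1426401_at) was at 9.26, 9.53 and 8.89 in B6g7 Tconv and at 9.73, 9.80 and 9.24 in B6g7 Treg. The NOD arrays gave 8.40, 8.75 and 8.85 in Tconv and 9.44, 9.17 and 9.46 in Treg. The groups overlapped in B6g7, and the NOD groups were apart. The averaged change was 0.53 ± 0.13 (1.44-fold, adjusted p = 0.035), with 0.36 in B6g7 (adjusted p = 0.519) and 0.69 in NOD (adjusted p = 0.0809, and 0.04 with the replicate block).

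The Ppp3ca call lay close to the threshold. All 6 differences between same-numbered arrays lay above 0, from 0.26 to 1.04, and without any 1 array the averaged change stayed between 0.44 and 0.61. The call did not hold in 8 of those 12 fits, nor with the 4 replicate 1 arrays left out (adjusted p = 0.236). Its probe set 1452056_s_at was called as well, at 8.39, 8.55 and 8.69 in NOD Tconv and 9.12, 8.99 and 9.18 in NOD Treg, with an averaged change of 0.40 (adjusted p = 0.0122). The means of its remaining probe set, 1438478_a_at, were 8.34 in Tconv and 8.60 in Treg of B6g7, not called (adjusted p = 0.55 in limma). In NOD they were 8.05 and 8.39.

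The NFAT factors that calcineurin acts on were not called. Nfatc1 changed by -0.13 ± 0.11 and Nfatc2 by -0.13 ± 0.11 in the averaged comparison, with adjusted p-values of 0.739 and 0.726. Nfatc3 was at 10.47, 10.23 and 10.17 in NOD Tconv and at 9.84, 9.64 and 9.62 in NOD Treg, without overlap. Its NOD change of -0.59 ± 0.17 had an adjusted p of 0.0963, or 0.00369 with the replicate block, and its B6g7 change was -0.15.

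Of the 8 genes that restrain the signal, Pag1 was called lower in Treg and the other 7 were not called. Pag1 encodes the membrane adaptor that recruits Csk, the kinase that keeps Lck inactive. Pag1 (1436570_at) was at 11.69, 11.86 and 11.36 in B6g7 Tconv and at 11.17, 11.14 and 11.06 in B6g7 Treg. Its NOD values were 11.73, 11.71 and 11.93 in Tconv and 11.31, 10.84 and 11.18 in Treg. All 6 Treg arrays lay under all 6 Tconv arrays.

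Pag1 fell by 0.68 in NOD (SE 0.14, 1.6-fold, adjusted p = 0.0183), and the averaged change was -0.60 ± 0.10 (1.51-fold, adjusted p = 0.00227). In B6g7 the change was -0.52 ± 0.14 (adjusted p = 0.0839), and it was called with array weights, the actin covariate and quantile normalization. The NOD call did not hold in 4 of the 12 fits without 1 array. Of its 3 other probe sets, 1456403_at was called at -0.43 averaged and the others were not. By the median of all its probe sets Pag1 was called neither in NOD (adjusted p = 0.385) nor averaged (adjusted p = 0.115). Csk itself changed by 0.28 in B6g7 and -0.04 in NOD and was not called.

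**Figure D3:**
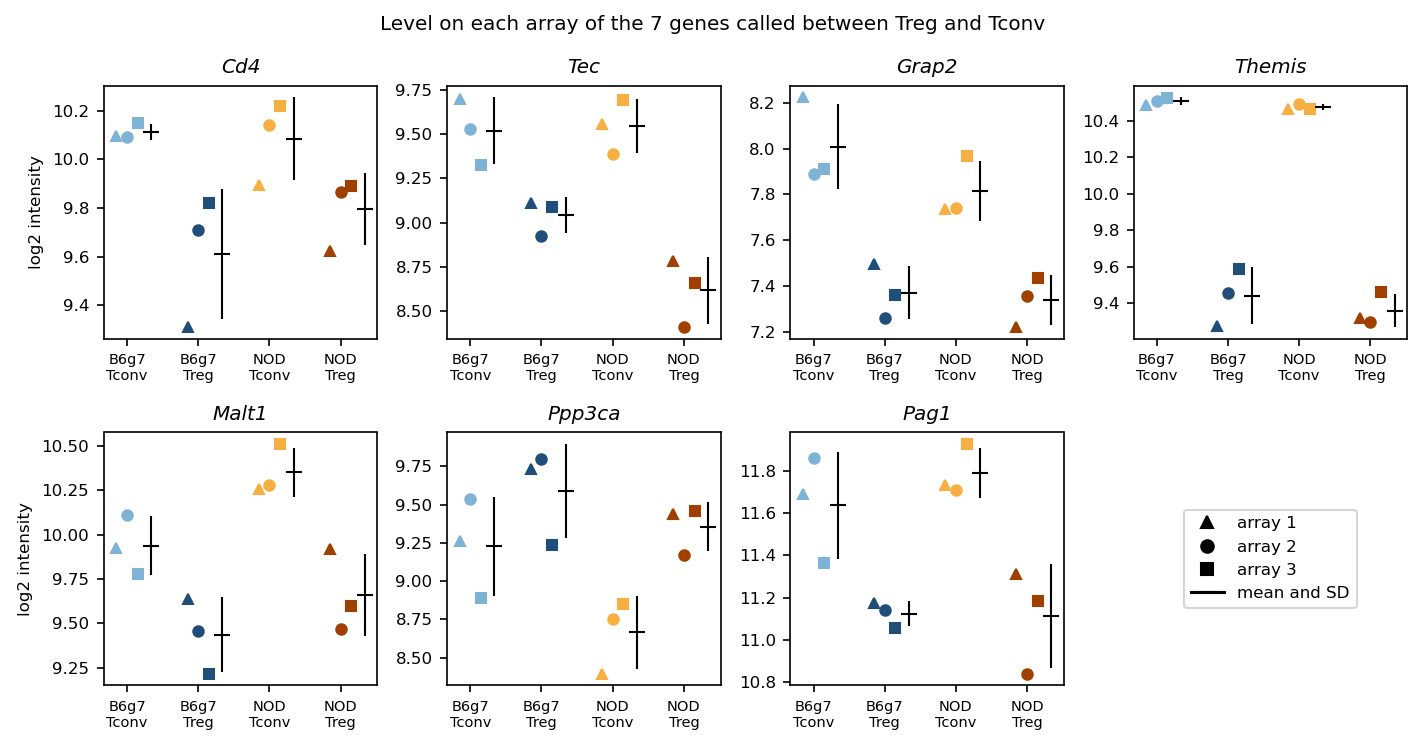
Log2 intensity of the 7 genes called between Treg and Tconv on each array, in the 4 groups (triangle, circle and square for arrays 1, 2 and 3), with the mean and SD of each group as a cross and bar. Each panel has its own scale, which does not start at 0. Themis Tconv arrays lie within a narrow band near 10.5, and Ppp3ca is the panel in which Treg lies above Tconv.

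Cblb and Cbl encode E3 ubiquitin ligases that mark the receptor's partners for removal, and Sla and Sla2 encode the adaptors SLAP and SLAP-2, which help Cbl to lower the receptor. By their brightest probe sets none was called: the averaged changes were 0.21 ± 0.15 for Cblb, 0.14 ± 0.07 for Cbl, 0.33 ± 0.24 for Sla and -0.30 ± 0.20 for Sla2. Cbl and Ppp3ca were the genes whose 6 differences between same-numbered Treg and Tconv arrays all lay above 0, from 0.04 to 0.25 for Cbl. These are 5.88% of the list, against 7.46% of all genes. Another 15 genes had all 6 below 0 (44.1%, against 7.3% of all genes), although the numbers were taken as pairing arrays in NOD and not in B6g7.

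Other probe sets of Cblb and Sla gave calls that the brightest did not. For Cblb, 1437304_at was at 10.93, 10.82 and 10.89 in B6g7 Tconv against 11.08, 11.20 and 11.68 in Treg, and at 10.74, 10.91 and 10.89 in NOD Tconv against 11.09, 11.36 and 11.30 in Treg. The groups were apart in both strains, with an averaged change of 0.42 (adjusted p = 0.0204), and 1455082_at changed by 0.38 (adjusted p = 0.0202). For Sla, 1441761_at was at 7.32, 7.26 and 7.14 in NOD Tconv and at 8.12, 7.99 and 8.19 in NOD Treg. It changed by 0.86 in NOD (adjusted p = 0.0148) and by 0.74 averaged (adjusted p = 0.00186), while the brightest Sla probe set changed by -0.06 in NOD and 0.71 in B6g7. The probe sets of Sla thus disagree in NOD. In B6g7 the brightest Sla probe set was called with the replicate block and with the actin covariate.

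Dgka and Dgkz encode diacylglycerol kinases, which remove the lipid that activates RasGRP1. Dgka changed by -0.24 ± 0.08 averaged (adjusted p = 0.122). Dgkz was at 10.83, 11.21 and 11.38 in NOD Tconv and at 11.33, 11.91 and 11.83 in NOD Treg, and at 11.42, 11.64 and 11.63 against 11.18, 11.67 and 11.68 in B6g7. It changed by 0.55 in NOD and -0.05 in B6g7, a difference of 0.60 ± 0.26 with an adjusted p of 0.962. With the replicate block the NOD change of Dgkz had an adjusted p of 0.00348, and with the replicate 1 arrays left out it was called at 0.58 (adjusted p = 0.0271).

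The strains did not differ in the change from Tconv to Treg for any of the 34 genes at an adjusted p under 0.05 in limma. Calls in this comparison were rare for all genes, at 0.0605% higher and 0.0495% lower. Unadjusted p-values under 0.05 were found for 3 of them, Cd3e, Tec and Dgkz (8.82%, against 4.97% of all genes). For 25 of the 34 genes the NOD change was the lower one, which is 73.5% against 55.9% of all genes.

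Between the strains within a cell type, none of the 34 genes was called by its brightest probe set in limma. Of all genes, 1.6% were called higher and 1.45% lower in NOD Tconv, and 1.84% and 1.49% in NOD Treg. An unadjusted p under 0.05 was found in Tconv for 5 of the 34 (14.7%, against 11.1% of all genes) and in Treg for 2 (5.88%, against 10.9%). The median difference of NOD from B6g7 was 0.14 in Tconv and -0.01 in Treg. In Tconv the 5 were Cd3g (0.47), Malt1 (0.41), Ppp3ca (-0.56), Cblb (0.58) and Dgkz (-0.43), and in Treg they were Zap70 (0.28) and Tec (-0.42).

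Tec in Treg was the strain difference of lowest p. Its 3 NOD Treg arrays all lay under the 3 B6g7 Treg arrays, at a difference of -0.42 ± 0.13 with an adjusted p of 0.129. Pools of different strains are not pairs of mice. Same-numbered Treg arrays of the strains did deviate together from their group means, most at replicate 1 (correlations of 0.67, 0.34 and 0.30). The labels do not say what the number marks. With the number as a block, a choice made from these same data, the adjusted p was 0.0422. Ppp3ca in Tconv was lower in all 3 NOD arrays than in the B6g7 arrays, with an adjusted p of 0.207.

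A dimmer probe set of Cd247 and a dimmer one of Lcp2 did differ between the strains, and the brightest probe sets did not share the difference. For Cd247, 1420716_at was at 7.55, 7.48 and 7.96 in B6g7 Tconv and at 6.14, 6.09 and 6.23 in NOD Tconv. In Treg it was at 7.04, 7.56 and 7.81 in B6g7 and at 6.10, 6.32 and 6.44 in NOD. All 6 NOD arrays lay under all 6 B6g7 arrays, with differences of -1.51 ± 0.18 in Tconv (2.85-fold, adjusted p = 0.000284) and -1.18 ± 0.18 in Treg (2.27-fold, adjusted p = 0.00189). The brightest Cd247 probe set differed by 0.19 and -0.08, and was called in neither. The remaining Cd247 probe sets lay close between the strains. For 1426079_at the means of B6g7 and NOD were 6.19 and 6.06 in Tconv, and 6.12 and 6.15 in Treg. For 1452539_a_at they were 5.42 and 5.39 in Tconv, and 5.32 and 5.14 in Treg.

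For Lcp2, 1418642_at was at 7.59, 7.71 and 7.33 in B6g7 Tconv and at 5.18, 5.42 and 5.63 in NOD Tconv. In Treg it was at 7.92, 7.76 and 7.56 in B6g7 and at 5.21, 5.25 and 5.50 in NOD. The strains lay far apart in both cell types, although the files carry no detection call that would tell whether the NOD levels stand above background. The differences were -2.13 ± 0.14 (4.39-fold, adjusted p = 1.59e-06) and -2.43 ± 0.14 (5.37-fold, adjusted p = 5.38e-07). The brightest Lcp2 probe set, 1418641_at, pointed the other way, with 0.56 in Tconv and 0.44 in Treg, neither called. Probe sets of the same gene thus gave opposite directions, and which of them tracks the level of the whole transcript was not tested.

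**Figure D4:**
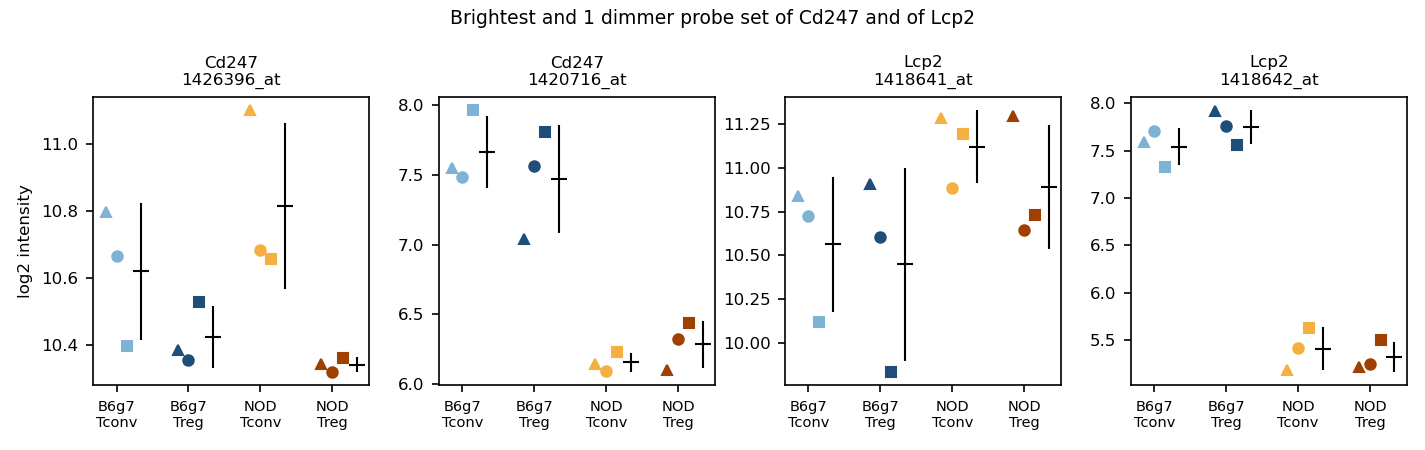
Log2 intensity on each array of the brightest and of 1 dimmer probe set of Cd247 and of Lcp2 in the 4 groups (triangle, circle and square for arrays 1, 2 and 3), with mean and SD; the panels have their own scales. In 1420716_at and 1418642_at all NOD arrays lie under all B6g7 arrays, and in the brightest probe sets the strains overlap or, for Lcp2 in Tconv, NOD lies above.

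A list of 69 other genes of the same pathway, of which 61 were measured, was counted beside the 34. Averaged, 9 of the 61 were called higher in Treg and 2 lower (14.8% and 3.28%, against 4.46% and 3.03% of all genes). Their median change was 0.02. In B6g7 6 were called higher and 2 lower (9.84% and 3.28%, against 2.84% and 1.7% of all genes). In NOD 4 were called higher and 0 lower (6.56% and 0%, against 2.86% and 1.52%). The higher genes included the Vav family members Vav2 (2.09 ± 0.12, adjusted p = 1.24e-07) and Vav3 (0.79 ± 0.09, adjusted p = 9.29e-05), while Vav1 was not called. Vav2 was at 6.69, 6.84 and 7.01 in B6g7 Tconv and at 9.44, 8.91 and 9.10 in B6g7 Treg. On NOD arrays the levels were 7.20, 7.14 and 6.78 in Tconv and 9.15, 8.91 and 8.69 in Treg, and no array of 1 cell type reached the range of the other. The other probe sets of Vav2 differed among themselves, 1 called at 0.80 and 1 not called at -0.09.

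The other genes called higher were Cd5 (0.66) and Cd6 (0.48), surface receptors that tune the signal, Stim2 (0.65), a calcium sensor of the endoplasmic reticulum, and Rasa1 (0.48) and Dok1 (0.32), which hold back Ras. Rhoh (0.46), an atypical GTPase that supports Zap70, and Nfat5 (0.41), an NFAT relative that calcineurin does not control, completed them. The lower genes were Orai2 (-0.43), a calcium channel subunit, and Trat1 (-0.39), a receptor-associated adaptor. A dimmer probe set was also called, in the same direction, for Vav3, Stim2, Nfat5 and Orai2, while those of Rasa1, Rhoh and Trat1 were not called. The remaining probe sets of Nfat5 (0.16, 0.11, 0.17 and 0.05) and of Vav3 (0.04) were not called either.

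**Figure D5:**
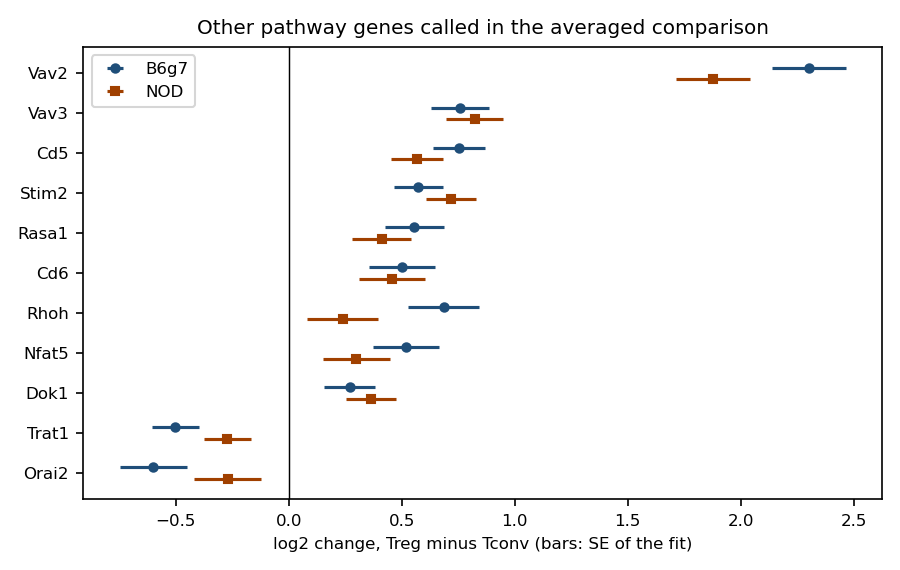
Log2 change of Treg minus Tconv, with the standard error of the fit, in B6g7 (circles) and NOD (squares) for the 11 other pathway genes called in the averaged comparison. Vav2 lies near 2 in both strains, and Trat1 and Orai2 are the genes below 0.

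Between the strains, 3 of these 61 genes were called lower in NOD Tconv and 2 higher (4.92% and 3.28%, against 1.45% and 1.6% of all genes). In NOD Treg 4 were called lower and 2 higher (6.56% and 3.28%, against 1.49% and 1.84%). Ubash3a, which encodes a phosphatase-like restraint on the receptor, was at 9.30, 9.31 and 9.04 in B6g7 Tconv and at 6.81, 6.39 and 6.49 in NOD Tconv, a difference of -2.65 (adjusted p = 1.20e-06), with -2.40 in Treg. Its other probe set, however, differed by 0.04 and 0.06 and was not called. Map3k7, which encodes the kinase TAK1 of the NF-kB branch, differed by -1.72 in Tconv and -2.02 in Treg, with 1 other probe set called alike and 4 not called. Itch, a ubiquitin ligase, was lower (-0.45 and -0.54), and Itpr2, a calcium release channel (0.70 and 0.85), and Rnf128, the ligase GRAIL (0.60 and 0.40), were higher. None of the 3 other probe sets of Itch was called. They differed by 0.10, -0.56 and 0.05 in Tconv and, in the same order, by 0.09, -0.77 and -0.14 in Treg. Of the 5 of Itpr2, 1 was called in Tconv (0.82) and none in Treg, where that probe set differed by 0.75. The others of Itpr2 lay at 0.77, 0.12, -0.03 and -0.11 in Tconv and, in the same order, at 0.57, -0.04, 0.35 and 0.03 in Treg. Ubash3b was called lower in Treg (-0.95), without a call from its other 2 probe sets (-0.58 and -0.48). The other 1 of Rnf128 was not called (0.42 in Tconv and 0.34 in Treg). Rnf128 was dim, with Tconv means of 4.95 in B6g7 and 5.55 in NOD, and Treg means of 5.26 and 5.66. The 25th percentile of probe set means was 5.28, and no detection call tells whether Rnf128 stood above background.

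Markers of other cell types stood as follows beside these results. In the averaged comparison 1 of 7 B cell markers (Cd79b, 0.79), 1 of 5 NK cell markers (Gzmb, 0.54) and 1 of 7 monocyte and macrophage markers (Fcgr3, -0.67) were called. None of the CD8 T cell, dendritic cell, neutrophil or erythroid markers was called, and between the strains no marker of these lists was called. The mean level of the B cell markers per array ran from 6.47 to 6.68 in the Tconv and 6.53 to 6.77 in the Treg of B6g7, and from 6.55 to 6.70 and 6.67 to 6.73 in those of NOD. In the same order, the NK cell markers ran from 5.84 to 6.02, 5.93 to 6.17, 5.97 to 6.10 and 5.97 to 6.09, and those of monocytes and macrophages from 6.34 to 6.53, 6.29 to 6.43, 6.39 to 6.50 and 6.29 to 6.41. Each of these ranges overlaps that of the other cell type. Of the 6 Treg markers, Ikzf2 (0.76) and Tnfrsf18 (0.62) were called higher in NOD than in B6g7 Tconv. The part of other cells in the differences above was not tested.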

How the data were processed

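RNA of 12 pools (4 groups of 3) was measured on Affymetrix arrays after 2 rounds of amplification, per the labels' protocols. The authors deposited linear intensities after RMA, per the series text; the version of RMA is not given in the sources available. The deposited intensities were turned into log2 values here, and no pseudocount, filter or further scaling was applied. After removal of 64 control probe sets, limma 3.58.1 under R 4.3.3 fitted the 4 group means to the 12 arrays for 45037 probe sets (lmFit, eBayes), and Benjamini-Hochberg adjustment ran over all of these in each comparison. A gene was called at an adjusted p under 0.05, and errors of changes are standard errors of the fit. With 3 arrays a side, an exact permutation test has a smallest p of 0.1, so none was run. The fit was tested on simulated data with planted changes.

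The genes and lists were chosen with earlier results of these data known. Values on every array are given for called genes, the CD3 and zeta chains, Cd4 and Zap70, and other genes by changes and counts; values on single arrays of further genes were chosen after they were seen. Of the other pathway genes, those called in the averaged or a strain comparison are named. For called genes the other probe sets naming the gene alone were compared.

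The replicate numbers of the labels were checked for pairing by correlating array deviations from the group mean. Same-numbered arrays correlated at 0.56, 0.31 and 0.40 between NOD Treg and NOD Tconv and at 0.67, 0.34 and 0.30 between the Treg groups. These were taken from the data as linked by number. For B6g7 Treg and Tconv (0.52, -0.08 and 0.50) and the Tconv groups (0.44, -0.04 and 0.20) they were not. The labels do not say what the number marks, and pools of different strains are not pairs of mice. The block was chosen from the same data that it was fitted to, and was also run for the comparisons without such a link. Alternatives were the arrays of the groups compared alone, the replicate number as a block, array weights, the actin 3' minus 5' difference as a covariate, quantile normalization, log2(intensity + 16), a filter on dim probe sets, the median of a gene's probe sets, and leaving out each array. Promoter windows and gene names of the platform annotation were matched by symbol, and 27 of the 34 genes had a window.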

Additional observations from a re-analysis of the deposited data

How the results depend on the processing

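Counts of called genes moved with the setting. Of 2 genes called in B6g7, there were 5 with the replicate block, 7 with array weights, 8 with the actin covariate and 5 after quantile normalization, and 2 to 4 without 1 array (4 without B6g7 Tconv replicate 3). Of 5 in NOD, there were 13 with the block and 11 with the actin covariate, and 2 to 6 without 1 array: 2 without NOD Tconv replicate 3 or NOD Treg replicate 2 or 3, and 3 without NOD Tconv replicate 1 or 2. Of 7 in the averaged comparison, there were 16 with the block, with array weights and with the actin covariate, and 5 to 8 without 1 array. Between strains, Tconv went from 0 to 2 with the block (Cblb and Dgkz), 1 with array weights (Ppp3ca) and 2 by the median of a gene's probe sets (Cd247 and Lcp2), and Treg from 0 to 1 with the block or quantile normalization (Tec) and 2 by that median. The difference between strains gave 0 in each setting that can give it, which a fit of only the groups compared cannot. By the median of the probe sets, 4 changes took the opposite sign and were called with it: Cd247 in Tconv between strains (-0.82), Lcp2 between strains in Tconv (-0.79) and Treg (-0.99), and Sla in NOD (0.57). The cause was not tested. Of the single changes, 1674 stayed on their side of the threshold across these settings (106 of them uncalled with the sign turned, 35 by that median), 80 gained a call and 10 lost one. Without 1 array the counts were 2403 (102 with the sign turned), 14 and 31. Without the 4 arrays numbered 1, chosen after the data were seen, 2, 5 and 7 genes were called in B6g7, NOD and averaged. Dgkz then took the place of Grap2 in NOD, and Txk that of Ppp3ca averaged. Over all genes this setting gave 415 higher and 209 lower in B6g7, 399 and 208 in NOD, and 719 and 474 averaged. The replicate block ended none of the calls. Over all genes, array weights moved the averaged calls from 812 higher and 552 lower to 1240 and 1153. The block moved them to 1061 and 866, and the actin covariate to 1120 and 922. In B6g7 the calls over all genes went from 517 higher and 310 lower to 693 and 468 with the block. They were 947 and 719 with array weights, 742 and 528 with the covariate, and 526 and 344 after quantile normalization. In NOD they went from 520 and 277 to 717 and 522 with the block and 696 and 460 with the covariate. Between strains in Tconv, 291 higher and 263 lower became 498 and 405 with the block. There they were 464 and 439 with array weights, and 276 and 307 by the median of probe sets. In Treg, 335 and 271 became 491 and 404 with the block, 364 and 291 after quantile normalization, and 326 and 307 by that median. With 3 arrays per group, small changes are hard to see.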
